A study of Mus musculus with 2 samples.

Results

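Metallothioneins and the main zinc transporters of mouse liver were compared between a Drp1 knockout and a wild type liver sample. The group consists of 9 genes, taken by symbol with earlier results of these data known: the metallothioneins Mt1 and Mt2, their regulator Mtf1, the exporters Slc30a1 and Slc30a10, and the importers Slc39a4, Slc39a5, Slc39a8 and Slc39a14. They were represented by 12 of the 39429 gene probes, under 9 of the 30222 gene names on the array. One liver sample came from a Drp1 knockout and the other from wild type; Drp1 is a GTPase needed for mitochondrial division. Both groups were male C57BL/6J mice, started at 4 weeks of age on a high-fat diet made with lard (24% fat, 45% of energy), which they received for 24 weeks. The study's title places the disruption in the liver. The labels name neither the allele nor what drove the deletion, nor how many livers went into a sample. The design text describes a fast of 17 h and, for refed mice, 4 h of refeeding after an overnight fast, and the labels do not say which applies to these samples. With 1 array for each genotype there is no replicate check on any value given here, and nothing was tested.

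Metallothioneins are small cysteine-rich proteins that bind zinc and copper in the cytosol, and hepatocytes make large amounts of them in response to zinc, glucocorticoids and interleukin 6. Mtf1 is the zinc-sensing transcription factor that binds metal response elements in the promoters of Mt1, Mt2 and Slc30a1. Slc30 proteins (ZnT) move metal out of the cytosol and Slc39 proteins (ZIP) move it in. Several of them also carry manganese: Slc30a10 exports it from hepatocytes, and Slc39a14 and Slc39a8 take it up.

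Differences are log2 values, knockout minus wild type, or folds, and levels are given relative to the 75th percentile of the same array. The knockout array had 57.1% of its gene probes well above background (22521) and the wild type array 50.5% (19923). On both arrays 19470 probes were well above background, and 15401 genes were measured on both. Repeated spots of a probe gave a difference between the arrays an SD of 0.14, or 1.1-fold. It covers only the spread between spots within an array. Differences in labelling or hybridisation between the arrays, and the spread between mice, are not in it. A 1.5-fold difference was used as the call, which 1295 genes met upwards (8.41%) and 2065 downwards (13.4%). Of the called genes 38.5% were thus higher, against 53.8% after centring on the median, 50.6% after loess normalization, 21.8% without the filter on dim probes and 97.7% when scaled to spike-in spots. The spike-in scaling raised every difference by 0.78 and turns round any negative difference smaller than that. It rests on 9 spike-in probes, whose unscaled differences ran from -2.31 to -0.006 with a median of -0.14. The 75th percentile of the knockout array was 1.57 times that of the wild type array. The median difference of all genes was -0.11, and over 10 groups of probes by level it lay between -0.31 in the brightest and 0.04. The single probe of Dnm1l, the gene of Drp1, read 1.75 on the knockout and 2.03 on the wild type array (-0.21), and since the deleted part is not given it does not check the labels. Markers of skeletal muscle were well above background only on the wild type array (7 of 8, summed level 0.125 in the knockout and 7.19 in the wild type).

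Of the 8 members measured on both arrays, 1 was at least 1.5-fold higher in the knockout (Slc39a4), 2 were at least 1.5-fold lower (Slc30a10 and Slc39a14) and 5 lay between. Among all genes 21.8% passed 1.5-fold in either direction. Slc39a5 could be measured in the knockout alone. The median of the 8 was -0.13, next to -0.11 for all genes, with 3 members above 0 and 5 below.

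**Figure D1:**
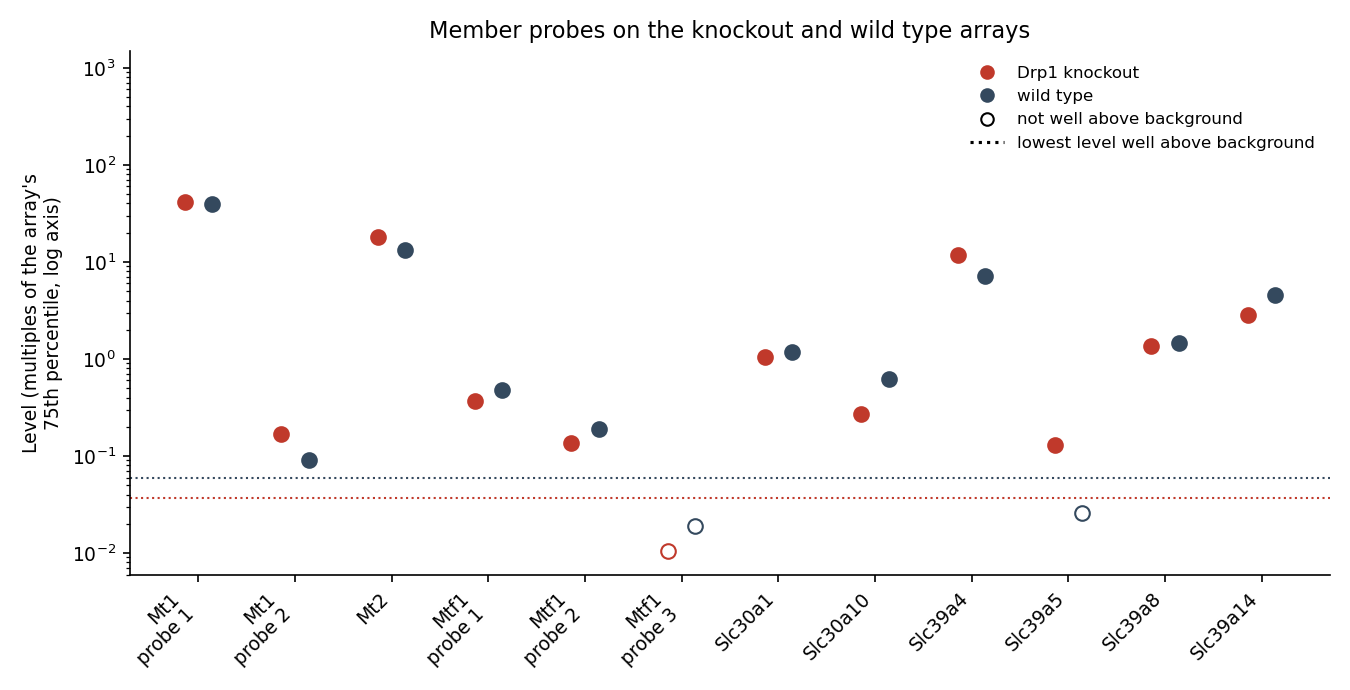
Level of each of the 12 member probes on the knockout (red) and wild type (blue) array, in multiples of the array's 75th percentile on a log axis. Open circles were not well above background and dotted lines mark the lowest level that was; Slc39a5 is open on the wild type array alone, and the third Mtf1 probe on both.

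The promoters of Mt1 and Mt2 are shown because both genes answer to Mtf1, and that of Slc30a10 because it differed most among the members measured on both arrays. The sequences are from RefSeq (GRCm38.p6), run from 250 bases before to 50 bases after the annotated start, and are written with matches to the metal response element core in capitals. The motif was searched as TGCACNC or TGCGCNC on both strands.
Mt1 promoter, chr8:94178839-94179138, plus strand: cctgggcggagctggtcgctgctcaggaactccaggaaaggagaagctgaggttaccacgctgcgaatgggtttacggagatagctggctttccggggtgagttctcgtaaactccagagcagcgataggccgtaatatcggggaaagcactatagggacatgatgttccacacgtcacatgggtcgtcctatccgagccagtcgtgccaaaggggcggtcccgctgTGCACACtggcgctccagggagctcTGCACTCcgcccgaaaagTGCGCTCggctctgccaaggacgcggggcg
Mt2 promoter, chr8:94172368-94172667, plus strand: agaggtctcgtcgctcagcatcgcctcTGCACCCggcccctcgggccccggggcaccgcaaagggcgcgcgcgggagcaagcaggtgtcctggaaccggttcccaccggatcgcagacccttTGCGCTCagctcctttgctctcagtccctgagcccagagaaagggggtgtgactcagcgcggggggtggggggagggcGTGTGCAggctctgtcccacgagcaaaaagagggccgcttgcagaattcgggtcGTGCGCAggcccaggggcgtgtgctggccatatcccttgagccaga
Slc30a10 promoter, chr1:185454598-185454897, plus strand: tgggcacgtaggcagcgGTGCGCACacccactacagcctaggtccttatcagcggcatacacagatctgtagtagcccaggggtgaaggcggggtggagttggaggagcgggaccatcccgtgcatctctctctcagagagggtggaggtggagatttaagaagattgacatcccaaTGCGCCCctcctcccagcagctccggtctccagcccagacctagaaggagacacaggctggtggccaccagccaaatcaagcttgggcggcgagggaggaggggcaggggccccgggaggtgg

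The Mt1 window held 3 matches, 2 of them after the annotated start, and the Mt2 window held 4. Slc30a10 had 3, of which 2 overlap on opposite strands. Of 32851 RefSeq windows of the same length, 25.7% held at least 1 match, 1.97% at least 3 and 0.517% at least 4. In all, 7 members had a window in the table, and 6 of them held a match: the Slc30a1 window had 2, Slc39a5 and Slc39a8 had 1 in 1 of their 2 windows each, and Mtf1 had 0. A match of these letters is a description of the sequence and not evidence of binding. Places are relative to the annotated start alone. The start used in these livers was not measured, and bases outside the windows were not searched.

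The metallothioneins were brighter on the knockout array with all 3 of their probes, but by unequal amounts. Mt1 and Mt2 are neighbours on chromosome 8, and their proteins are the metallothioneins that liver makes. Mt1 had 2 probes. The ends of the 3 metallothionein probes, their last 30 bases, are given to show what each one reads, with the polyadenylation signal in capitals where it is present.
Mt1 probe 1: gtacgtgaatAATAAAagcctgtttgagtc
Mt1 probe 2: cggaggccattgtattgtctcggggacaga
Mt2 probe: ctcgttctccacaactttttctataaagca

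Mt1 probe 1 lies at chr8:96704165-96704224 (mm9, plus strand), at position 479 of the RefSeq transcript NM_013602, and its letters include AATAAA. The files annotate it also to the Ensembl transcript ENSMUST00000062980. Probe 2 lies at chr8:96703844-96703903 and is annotated to that Ensembl transcript but to no RefSeq accession. The Mt2 probe lies at chr8:96697371-96697430 at position 459 of NM_008630. The Mt1 probe 1 and the Mt2 probe matched at no more than 24 of 50 overlapping bases without gaps, with a longest shared run of 7 bases.

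Mt1 probe 1 read 41.2 times the 75th percentile on the knockout and 39.5 times on the wild type array, a difference of 0.06 that is below the spot SD. The same spots gave signals of 29714 on the knockout and 18206 on the wild type array before scaling. Bright probes as a group were lower in the knockout, with a median of -0.31 over the 1947 probes in its level group, and 90.3% of these lay below Mt1. Loess normalization, which removes this dependence on brightness, gave 0.35 for the probe.

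Mt1 probe 2 read 0.168 on the knockout and 0.0910 on the wild type array, a difference of 0.88 or 1.84-fold. The wild type value lies close above background, at a log2 level of -3.46 where the lowest well above background was -4.08. The knockout value was -2.58 where that lowest level was -4.76. Normexp background correction left a difference of 0.22, but it adds 50 to each signal, which draws dim log ratios towards 0. Before scaling the signals were 121 on the knockout and 41.9 on the wild type array. As the mean of its 2 probes Mt1 was 1.39-fold higher in the knockout (0.47), but the probes disagree, and taking the brighter probe alone gave 0.06. The mean passed 1.5-fold after quantile normalization (0.60), loess normalization (0.66) and spike-in scaling (1.25) and in the deposited value table (0.60). It was 0.16 with normexp background correction.

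Mt2 read 18.0 on the knockout and 13.4 on the wild type array, from signals of 13001 on the knockout and 6178 on the wild type array. This is a difference of 0.43 or 1.34-fold, which is 3.03 times the spot SD and short of 1.5-fold. It was higher than 95.6% of the probes of like level, and passed 1.5-fold after quantile normalization (0.66), loess normalization (0.66) and spike-in scaling (1.21) and in the deposited value table (0.65).

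Mt3, the metallothionein of brain, read 0.663 on the knockout and 0.752 on the wild type array (-0.18, and positive when scaled to spike-in spots). Mt4, which is made in squamous epithelium, was not well above background on either array. Mt3 thus had the opposite sign to Mt1 and Mt2 in the reported scaling. Its value was little more than the spot SD of 0.14, and that of Mt1 probe 1 (0.06) was below it.

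**Figure D2:**
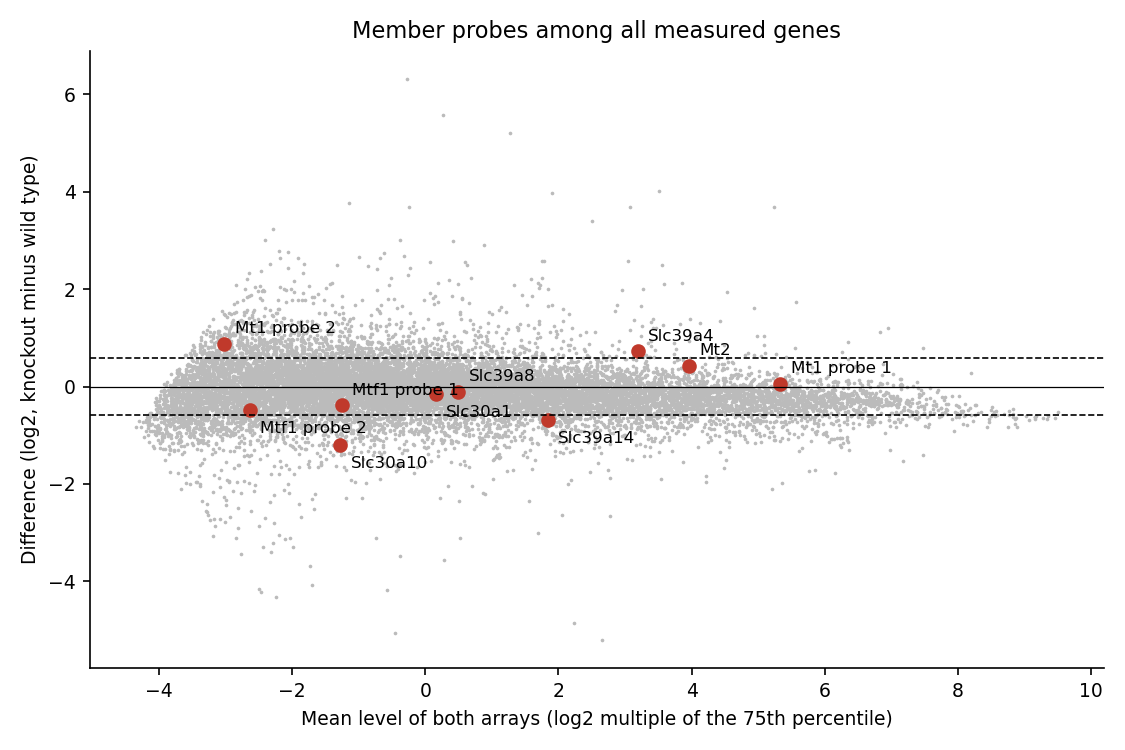
Difference between knockout and wild type (log2, y axis) against the mean log2 level of both arrays (x axis), for all 15401 measured genes (grey) and the 10 member probes measured on both arrays (red). Dashed lines mark 1.5-fold; Slc39a4, Mt2 and Mt1 probe 1 lie in the upper part of the grey band at their brightness, and Slc30a10 lies in its lower margin.

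No gene around the cluster that was measured on both arrays was called, but 3 probes there were measured in the knockout alone. Within 500 kb of Mt1 probe 1 on chromosome 8, 12 genes other than metallothioneins were measured on both arrays, of which 0 were 1.5-fold higher and 0 lower. They ranged from Herpud1, a stress-induced membrane protein of the endoplasmic reticulum, at -0.48 to Arl2bp at 0.57, with a median of 0.07. Nup93, a nuclear pore subunit and the nearest measured gene on the far side of Mt1, differed by 0.18. Bbs2, a subunit of the ciliary BBSome, was measured in the knockout alone and was at least 1.39-fold higher there. One of 2 probes of 9330175E14Rik, 243 kb from Mt1, read 0.246 in the knockout and was not well above background in the wild type, at least 4.15-fold higher, while its other probe differed by 0.04. The third was 1 of 2 probes of Nlrc5, at least 1.05-fold higher, whose other probe differed by 0.10.

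**Figure D3:**
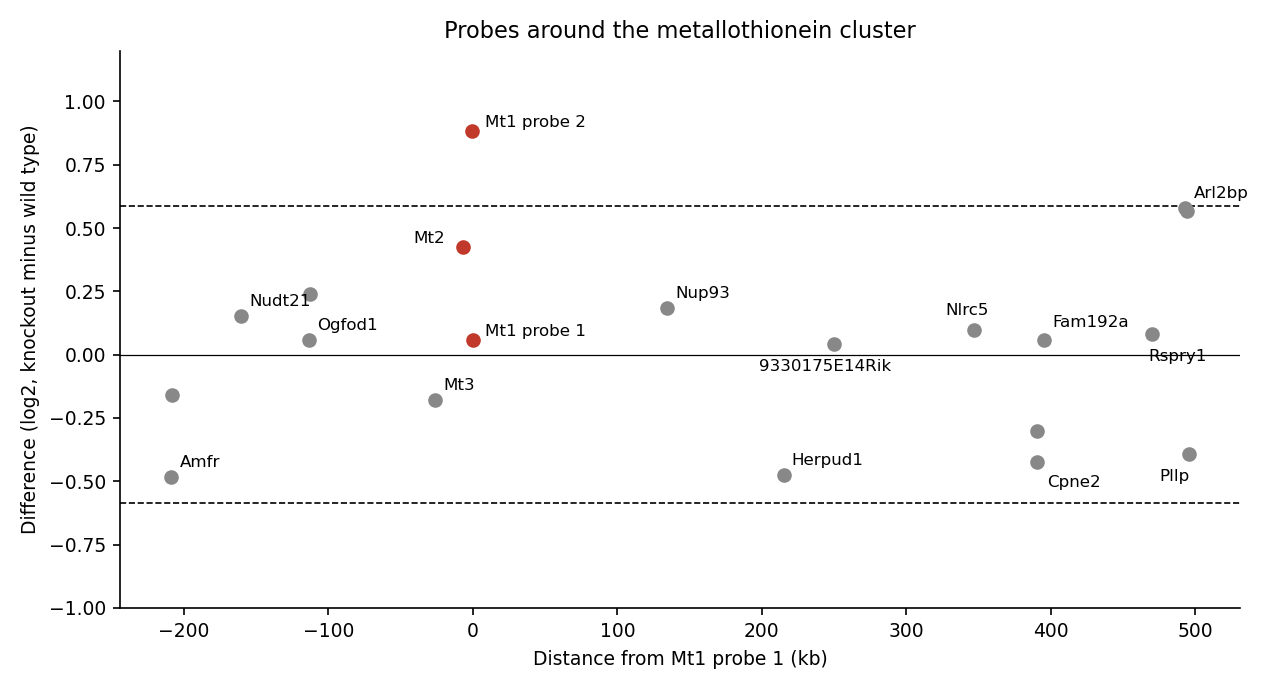
Difference between knockout and wild type (log2) of each probe measured on both arrays within 500 kb of Mt1 probe 1, against its distance from that probe in kb. Mt1 and Mt2 are red and other genes grey; 1 probe, Mt1 probe 2, lies beyond the dashed 1.5-fold line.

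Mtf1, the metal-sensing regulator, was slightly lower in the knockout. Its brighter probe read 0.367 on the knockout and 0.479 on the wild type array (-0.38). The second probe read 0.136 on the knockout and 0.190 on the wild type array (-0.48), and the third was not well above background on either. Both measured probes lie on chromosome 4 in the transcript NM_008636. Their mean was -0.43, or 1.35-fold lower, which did not reach 1.5-fold and was positive, at 0.35, when scaled to spike-in spots.

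Slc30a1, the plasma membrane zinc exporter and a target of Mtf1, differed by about the spot error. It read 1.06 on the knockout and 1.17 on the wild type array, a difference of -0.15. That is 1.04 times the spot SD, and 46.7% of all genes had a lower value. Its difference was 0.64 when scaled to spike-in spots.

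Slc30a10, the manganese exporter of hepatocytes, had the greatest difference of the members measured on both arrays. It read 0.272 on the knockout and 0.625 on the wild type array, from signals of 196 on the knockout and 288 on the wild type array. It was 2.30-fold lower in the knockout (-1.20), 8.54 times the spot SD, and 1.99% of genes had a lower value. Its probe lies at chr1:187292107-187292166 (mm9, plus strand) at position 5301 of NM_001033286. The difference stayed below zero in each of the 10 alternative settings, between -1.22 and -0.42, and fell short of 1.5-fold in 1 of them, the spike-in scaling. Changing only the filter, the probe choice or the flagged spots left this single-probe value at -1.20.

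Slc39a14, an importer of zinc, manganese and non-transferrin iron that interleukin 6 induces in liver, was lower as well. It read 2.82 on the knockout and 4.53 on the wild type array, a difference of -0.69 or 1.61-fold lower, while the signals before scaling were 2033 on the knockout and 2088 on the wild type array. The probe, at chr14:70703394-70703453 (mm9, minus strand), is annotated to 3 RefSeq transcripts and so does not tell its splice forms apart. It fell short of 1.5-fold after quantile normalization (-0.57), after loess normalization (-0.57), after centring on the median (-0.58) and in the deposited value table (-0.56), and turned positive with spike-in scaling (0.10).

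Slc39a8, the close relative of Slc39a14, did not differ beyond the spot error. It read 1.36 on the knockout and 1.46 on the wild type array (-0.10), and it turned positive after centring on the median (0.0032) and with spike-in scaling (0.68). Of the 3 manganese carriers among the members, the exporter and 1 of the 2 importers were thus lower by this measure.

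Slc39a4, the importer through which the intestine takes up dietary zinc, was the member called higher. It read 11.7 on the knockout and 7.12 on the wild type array, from signals of 8472 on the knockout and 3280 on the wild type array. The difference was 0.72 or 1.65-fold, 5.13 times the spot SD. Of the measured genes 94.2% had a lower value, and of the probes of like level 97.7%. Its probe lies at chr15:76442866-76442925 (mm9, minus strand) at position 2113 of NM_028064, and it passed 1.5-fold in each of the 10 alternative settings. The settings that change only the filter, the probe choice or the flagged spots left this single-probe value at 0.72, its lowest.

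Slc39a5, an importer of the basolateral membrane of enterocytes and of pancreatic acinar cells, read 0.131 on the knockout array and 0.0261 on the wild type array, where it was not well above background. By the bound that the wild type background sets, it was at least 2.21-fold higher in the knockout. The bound compares its knockout level with the lowest level that could be measured in the wild type, and was 1.32-fold with normexp background correction. That correction adds 50 to each signal, and the signals here were 94.6 on the knockout and 12.0 on the wild type array. The probe's coordinates on chromosome 10 (127834340 to 127834762, mm9) span 423 bases although it is 60 bases long, so it reads across a splice junction.

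Markers of pancreatic acinar cells and enterocytes, in which Slc39a5 and Slc39a4 are best known, were read beside them; their part in the 2 values was not tested. Among 8 pancreatic acinar markers, 2 were measured on both arrays, 0 higher and 1 lower (Ctrb1, 1.84-fold), with a summed level of 0.713 in the knockout and 1.25 in the wild type. Cela2a was measured in the wild type alone, at least 4.91-fold lower in the knockout, and Cela1 in the knockout alone, at least 1.39-fold higher. The acinar enzymes Prss2, Pnlip and Cpa1 were not well above background on either array. Among 8 listed enterocyte markers, of which 7 had a probe, 3 were measured and 1 was higher, Apoa4, which hepatocytes also make. Summed levels were 127 in the knockout and 120 in the wild type, made up mostly of Apoa4 and Fabp2. Apoa4 read 53.75 in the knockout and 17.7 in the wild type. Fabp2 went the other way, at 66.9 in the knockout and 96.5 in the wild type, and Lgals4 differed by 0.08. Vil1, Cdx1, Cdx2 and Sis were not well above background on either array.

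The other genes of the transporter families lay mostly within 1.5-fold. Of the other 8 Slc30 genes, 5 were measured, 0 of them 1.5-fold higher and 0 lower, with a median of -0.19. They ran from Slc30a7, a Golgi zinc transporter, at -0.55 (its 2 measured probes gave -1.38 and 0.29) to Slc30a9 at 0.39. Slc30a2, Slc30a3 and Slc30a8 were not well above background on either array.

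Of the other 10 Slc39 genes, 7 were measured, 1 higher and 2 lower, with a median of -0.06. Slc39a6 was 1.87-fold higher in the knockout, at 0.290 against 0.155 in the wild type. Slc39a1, a plasma membrane zinc importer, was 1.58-fold lower, at 11.3 in the knockout and 17.8 in the wild type, and Slc39a2 was 1.52-fold lower, at 0.0941 in the knockout and 0.143 in the wild type. Slc39a9 and Slc39a10 could be measured in the knockout alone, with bounds of at least 1.18-fold and at least 1.46-fold higher. Slc39a1 and Slc39a2 turn positive with spike-in scaling, since both lie within its shift. Centring on the median raised every difference by 0.11, which left both short of 1.5-fold. Slc39a2 was also dim on both arrays.

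**Figure D4:**
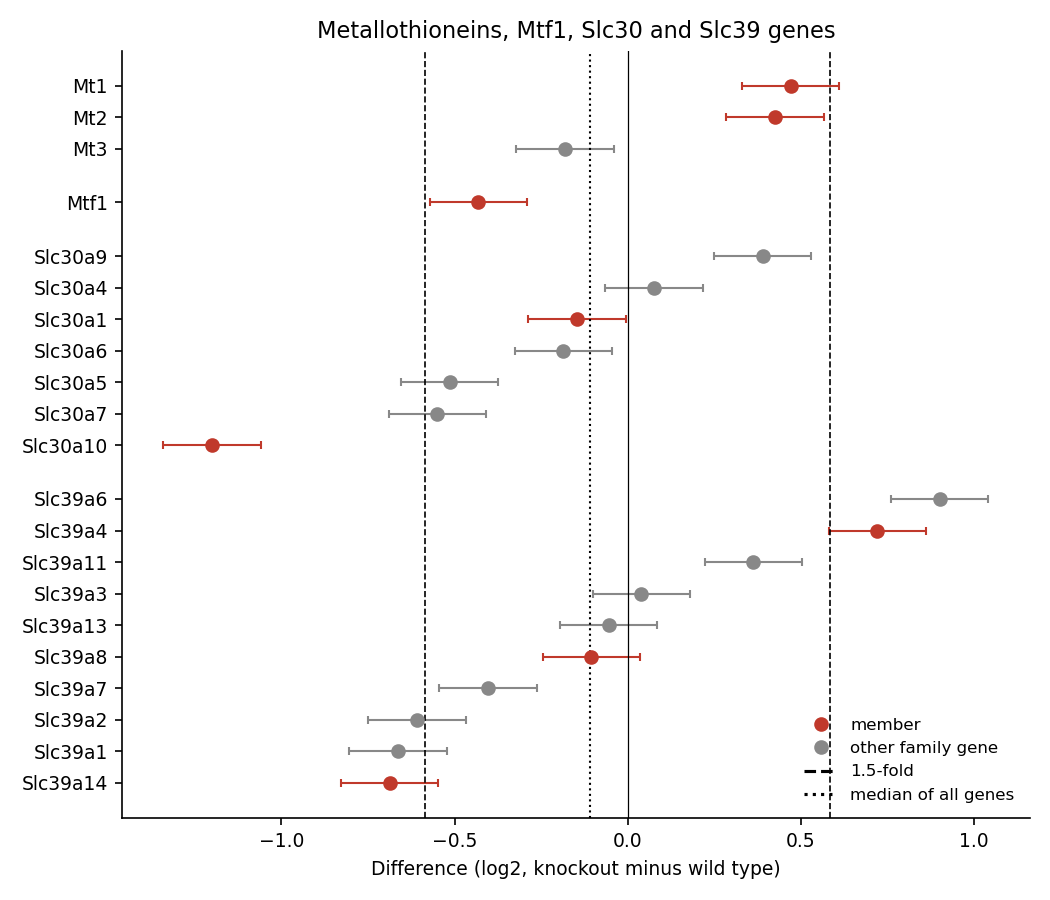
Difference between knockout and wild type (log2) of metallothioneins, Mtf1, Slc30 genes and Slc39 genes measured on both arrays, members in red and other family genes in grey. Bars are the SD of a difference between single spots (0.14), dashed lines mark 1.5-fold and the dotted line the median of all genes; Slc30a10 lies farthest from 0.

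Genes of hepatic metal handling outside these families were described from lists. Of 9 measured copper genes 0 were higher and 2 lower, namely the copper importer Slc31a1 (6.39 in the knockout, 11.4 in the wild type, -0.83) and Ccs, the copper chaperone of superoxide dismutase (-0.75). Their median was -0.36, against -0.11 for all genes, but 0.01 after loess normalization. Of 7 genes of manganese handling and manganese enzymes, 1 was lower, glutamine synthetase (Glul, 26.9 in the knockout and 51.2 in the wild type, -0.92). Iron and manganese exporter Slc40a1 (-0.10), importer Slc11a2 (0.08) and arginase Arg1 (0.05) lay near 0, and the median was -0.08.

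Zinc enzymes of liver went both ways, with 2 of 11 measured higher and 4 lower, and a median of -0.53 that was -0.31 after loess normalization. Car2, a carbonic anhydrase, was 4.05-fold higher (0.715 in the knockout, 0.176 in the wild type). The carbonic anhydrases Car3 (3.42-fold) and Car5a (2.68-fold) and the copper-zinc superoxide dismutase Sod1 (1.72-fold) were lower. Of the plasma proteins that carry zinc, Hrg (-0.72) and Ahsg (-0.69) were lower, and albumin differed by -0.52. These are bright probes, and the median of the 3 measured carriers, -0.69, was -0.21 after loess normalization.

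The lists of glucocorticoid-responsive genes and of the interleukin 6 and Stat3 axis had unlike values on these arrays. Glucocorticoids and interleukin 6 are known to induce metallothioneins in liver, but neither these inputs nor zinc was measured. Among 11 glucocorticoid-responsive genes 5 were higher, 0 were lower and the median was 0.46, or 0.83 after loess normalization. The kinase Sgk1 was 2.82-fold higher in the knockout, tyrosine aminotransferase (Tat) 2.06-fold, Zbtb16 1.96-fold and Cebpd 1.82-fold, while Fkbp5 (-0.29), Per1 (-0.19) and Dusp1 (-0.01) did not reach 1.5-fold. Of 11 genes of the interleukin 6 and Stat3 axis, 1 was higher and 5 lower. Their median was -0.58, but -0.32 after loess normalization, -0.25 after quantile normalization and 0.20 with spike-in scaling. Saa1 (-2.11), Saa2 (-1.98), the feedback inhibitor Socs3 (1.62 in the knockout, 3.25 in the wild type) and haptoglobin (Hp, -0.84) were lower, and hepcidin (Hamp, 0.91) was higher. Saa1 and Saa2 are near-identical, so their single values are uncertain.

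Nrf2, the oxidative stress regulator, also acts on the Mt1 promoter. Of its 7 measured targets 3 were higher, namely Nqo1 (0.95), Srxn1 (0.93) and Hmox1 (0.76), and 0 lower, with a median of 0.17, or 0.36 after loess normalization. Slc39a14 has been described as a target of Atf4 in the stress response of the endoplasmic reticulum. Of 8 Atf4 and Chop targets 7 were higher and 0 lower, led by Atf3 (5.58), Trib3 (4.02), Asns (3.78) and Fgf21 (2.58), while Slc39a14 itself read lower. With 2 arrays no relation between these lists and the members could be tested.

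Markers of several cell types also differed between the samples. In whole liver, fewer cells of a type and less RNA per cell cannot be told apart. Hepatocyte markers had a median of -0.42, with 1 of 8 higher and 3 lower and a summed level of 1986 in the knockout and 2805 in the wild type. Most of these are bright probes, and all probes of the brightest level group had a median of -0.31. Stellate cell markers were higher in 6 of 8 (median 1.06, summed level 68.6 in the knockout and 46.8 in the wild type) and macrophage markers in 4 of 8 (median 0.46, 40.2 in the knockout and 27.6 in the wild type). Bile duct markers were higher in 4 of 5 measured (median 1.24). Of the bile duct markers not measured on both arrays, Cftr was measured in the wild type alone, at least 2.21-fold lower in the knockout. Krt7 was measured in the knockout alone, and Epcam was not well above background on either array. T, B and NK cell markers were higher in 4 of 6, with 1 lower (9.94 in the knockout and 4.91 in the wild type). Endothelial markers were higher in 3 of 7 (5.63 in the knockout and 4.48 in the wild type). Neutrophil markers were lower in 5 of 6 (median -0.87, 6.08 in the knockout and 10.5 in the wild type). Of the adipocyte markers Cfd was 33.6-fold and Cidea 8.67-fold lower and Ucp1 was measured in the wild type alone (summed level 3.14 in the knockout and 11.1 in the wild type), while Fabp4 differed by 0.01 and Adipoq, Plin1, Lep and Retn were not well above background on either array. The part of these markers and of the muscle markers in the differences of Slc30a10, Slc39a14, Slc39a4 and the metallothioneins was not tested.

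**Figure D5:**
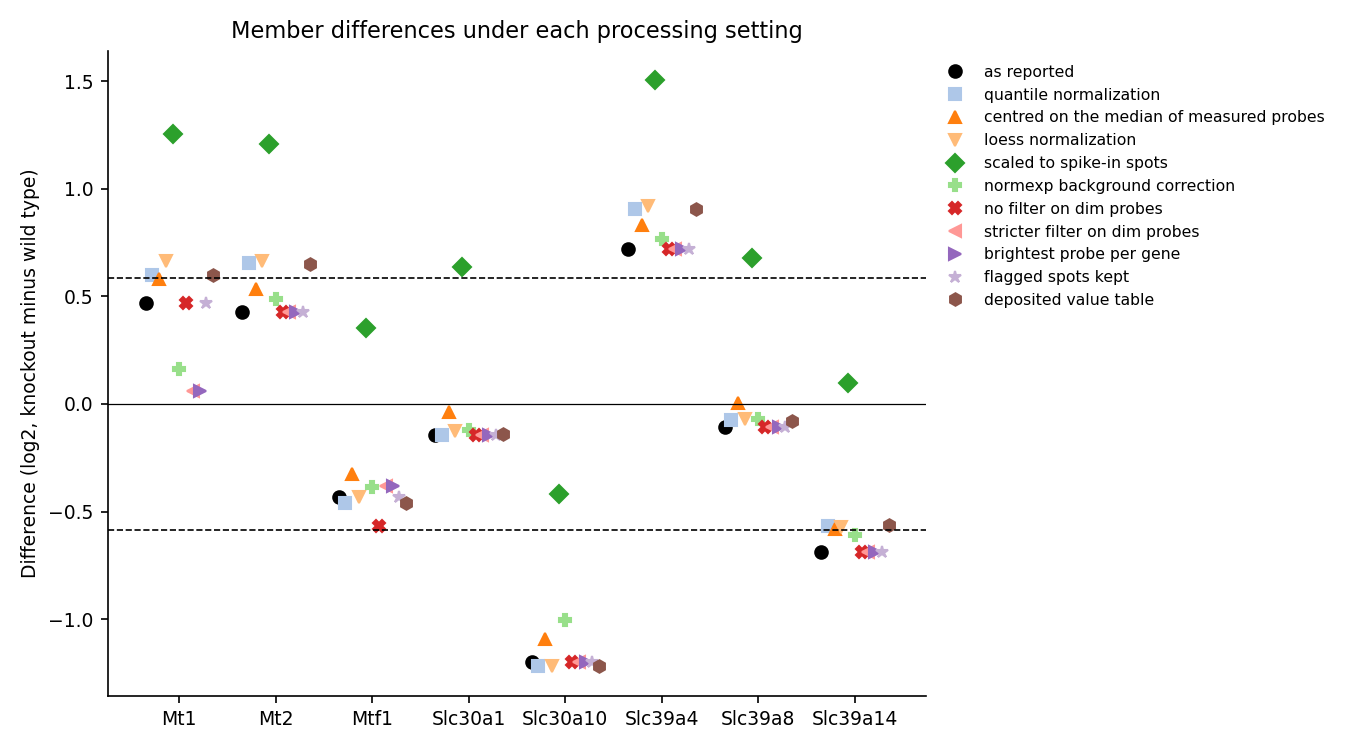
Difference between knockout and wild type (log2) of the 8 members measured on both arrays, as reported (black circles) and under each of 10 alternative settings (other symbols). Dashed lines mark 1.5-fold; Slc39a4 lies above the upper line in every setting shown, Slc30a10 lies below the lower line in all but the spike-in scaling, and the spike-in scaling lies above the other settings for each gene.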

How the data were processed

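Total liver RNA of 1 Drp1 knockout and 1 wild type sample was labelled with Cy3 and hybridised to 1-colour Agilent mouse arrays on 1 slide. Spot intensities are those of Agilent Feature Extraction (10.7.1.1 per the file headers, 9.5.1.1 per the submitters' processing notes). The deposited processed signal is an intensity after background subtraction and spatial detrending; signals near background carry a small positive substitute, per the file headers. The deposited value table holds intensities whose sorted values agree between its columns at all but 221 of 39429 ranks; its linear scale and direction follow from its rank match to each scanner file, and it was used as an alternative. Its medians were 45.9 in both columns.

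Control spots (1377 of 44397 per array) and spots marked as outliers (190 on the knockout, 183 on the wild type array) were left out, and 0 were saturated. Signals were divided by the array's 75th percentile and log2-transformed. A probe was measured where at least 50% of its spots were well above background. Genes go by the files' gene name, and a gene's value is the mean over its measured probes. Probe positions are in mm9 and were not converted. The spot SD was pooled over 241 probes.

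With 1 array per group no test, p-value or SE is given, and precision is limited by there being so few arrays. The members and lists were chosen with earlier results of these data known. Named are all members, family genes past 1.5-fold or at the ends of their list, and up to 4 genes past 1.5-fold in each other list or its 2 greatest; further genes given by value were chosen with their values in view. A likeness of pattern over 2 arrays is not defined, so no gene is named for one. Promoters are from RefSeq (GRCm38.p6). Python 3.11.15 with statsmodels 0.14.6 and limma 3.58.1 were used.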

Additional observations from a re-analysis of the deposited data

How the results depend on the processing

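No paired analysis was possible because each group holds 1 array. Of the 80 values of single members under the 10 alternatives, 61 moved by less than the spot SD of 0.14 and 18 moved by more. The other 1 turned round from a called value: Slc39a14, at 0.10 when scaled to spike-in spots. The 61 include values of members with 1 probe, which the settings for filter, probe choice and flagged spots returned unchanged. The number of members 1.5-fold higher, 1 as reported, was 3 with quantile normalization, with loess normalization and in the deposited value table, 2 without the filter on dim probes and 5 with spike-in scaling. Of all genes 8.41% were higher as reported, 8.93% with quantile normalization, 9.77% with loess normalization and 8.82% in the deposited value table. That share was 10.5% without the filter on dim probes and 58.5% with spike-in scaling. The number 1.5-fold lower, 2 as reported, was 1 with quantile normalization, centring on the median, loess normalization and the deposited value table, and 0 with spike-in scaling. Of the 15401 genes 2065 were lower as reported, 1762 with quantile normalization and 1467 with loess normalization. The number over all genes was 1476 after centring on the median and 1763 in the deposited value table. The median of the members was 0.66 with spike-in scaling, where the median of all genes was 0.67. Over all genes, the numbers higher and lower (1295 and 2065) were 9015 and 208 with spike-in scaling and 657 and 1471 with normexp background correction. They were 647 and 1276 under the stricter filter and 3168 and 11338 without a filter, settings that also change how many genes are compared. As a share of the genes compared, 5.63% were higher under the stricter filter and 10.5% without a filter, against 8.41% as reported. Of the list medians, 81 of 120 moved by less than the spot SD, and the plasma zinc carriers turned to 0.0912 with spike-in scaling. Brightness limits Slc39a5 and Mt1 probe 2, which lie at or near background on the wild type array. The bound of Slc39a5 on the log2 scale, 1.14 as reported, was 0.40 with normexp background correction and 1.93 with spike-in scaling. The 50 that normexp adds to each signal bears most on such dim probes. Leaving out a replicate could not be done with 1 array per group, and the cause of these changes was not tested.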
